A study of Homo sapiens with 8 samples.

Results

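The comparison set the cancer cell lines H522, H661, KLE and H716, called set A here, against 1321N1, HEC59, COV318 and H146, called set B, so that each set held 4 of the 8 lines of the series. The sets are the first and the last 4 samples in the order of the series, and a difference in the steps of low values had led to this split. The study set 4 lines that respond to ibrutinib against 4 that do not, all of which express ERBB4. The sources used here do not say which lines respond, so neither set is called by response, and response, tissue and any difference in handling between the sets cannot be told apart. Each line was an untreated culture of 1 library, grown in plates for 48 hours. COV318 was at passage 9 to 15, and the other lines were at passages between 3 and 10.

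In set A, the lung lines were H522 (non-small cell cancer) and H661 (large cell cancer), KLE came from an endometrial adenocarcinoma and H716 from the cecum with a colorectal adenocarcinoma. In set B, 1321N1 was labelled as a brain astrocytoma, HEC59 as an endometrial carcinoma, COV318 as an epithelial-serous ovarian carcinoma and H146 as a small cell lung cancer. No line carried an allele, transgene or agent according to the labels. The lines of a set are different tumours, so the spread within a set is the spread between tumours. Lung and endometrial lines occurred in both sets, which gave a lung difference (H522 and H661 minus H146) and an endometrial difference (KLE minus HEC59), without a test. Values per line are given below in the order in which the lines are named here.

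ERBB4 is a receptor tyrosine kinase that binds neuregulins, and ibrutinib is a covalent inhibitor of Bruton's tyrosine kinase (BTK) that also binds other kinases with a matching cysteine, ERBB4 among them. WNT5A is a secreted ligand of WNT signalling that acts mostly without beta-catenin, through receptors such as ROR1. A processed pseudogene is a copy of a spliced mRNA that was inserted back into the genome. A sequencing read from the parent gene can match such a copy where both sequences are identical, so the level of a close copy depends on how such reads were assigned as well as on its own transcription.

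The tissue labels were checked against defining markers. CDH17, an intestinal cadherin, was at an FPKM (a fragment count scaled by transcript length and library size) of 137 in H716 and at most 0.445 elsewhere. INSM1, a neuroendocrine transcription factor, was at 5.27 in H716 and at 81.3 in H146. PAX8, a Müllerian transcription factor, was at 45.7 in KLE, against 185 in HEC59 and 72.6 in COV318. Defining markers of several labels were little expressed. Among lung markers, NKX2-1 was at 11.2 in H661, 0.0204 in H522 and 0.0167 in H146, and the secretory gene SCGB1A1 was listed at 0 in all lines. In 1321N1, the glial genes GFAP, S100B and OLIG2 were at 3.1, 0 and 0.00771. Means over the tested members of wider lists looked different. The lung lineage mean was 4.32 (log2) in H146, 2.66 in H522 and 0.85 in H661, against 0.4 to 2.1 in the other lines. The glial mean was highest in 1321N1 with 2.82, close to 2.69 in KLE and 2.57 in COV318.

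Across the lines, 12205 to 13300 genes reached an FPKM of 1, and FPKM summed to between 376880 and 511451 after values above 100000 were left out. Read totals are not in these values, so the depth of each line is unknown and intervals for counting error cannot be given. Mitochondrial genes took 6.11%, 7.92%, 6.13% and 7.75% of the sum in set A, against 4.37%, 16.1%, 9.85% and 13.1% in set B. Spearman correlations between lines across genes ranged from 0.724 to 0.838 within set A (6 pairs), from 0.678 to 0.788 within set B (6 pairs) and from 0.669 to 0.846 between the sets (16 pairs). The 3 ranges overlapped, so the ranking of genes did not set the lines of a set apart. Genes are not independent replicates, and no test was attached to these correlations.

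No gene passed the test between the sets. Expression reached an FPKM of 1 in 2 or more lines for 15650 genes, of which limma on log2(FPKM + 1) called 0 at a Benjamini-Hochberg adjusted p of 0.05 (0% called), and the smallest adjusted p was 0.0975. Without adjustment, 951 genes (6.08%) had a p under 0.05, 526 higher (3.36%) and 425 lower (2.72%) in set A. All 4 lines of set A lay above all 4 lines of set B for 369 genes (2.36%) and below them for 274 genes (1.75%). The median difference over all genes tested was 0.03 (log2), with 8187 genes higher and 7463 lower in set A by their means. In simulated data of this size the test recovered 0 of 67 genes changed by 1 log2 unit, 21 of 67 changed by 2 and 49 of 66 changed by 4. Differences of 1 log2 unit were therefore below what 4 lines against 4 could detect.

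Because the test called no gene, the protein-coding genes named next are the 12 in each direction with the smallest unadjusted p among those whose sets did not overlap. Their lack of overlap is how they were chosen and is not a result. A difference is always the mean log2(FPKM + 1) of set A minus that of set B, a scale on which low genes differ by less than their FPKM does.

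FUT8, which adds the core fucose to N-linked glycans, had the smallest p among the genes higher in set A. Its FPKM was 52.3, 77, 133 and 72.3 in set A, against 20.1, 8.01, 25.7 and 9.99 in set B. On the log2 scale it averaged 6.32 ± 0.55 in set A and 3.94 ± 0.75 in set B (SD, n = 4 each), a difference of 2.38 (SE 0.441, limma adjusted p = 0.443). COL3A1, the chain of type III collagen, had 25.5, 205, 55.2 and 40.8 in set A, against 13.2, 0, 1.02 and 1.69 in set B. Only 1321N1 in set B exceeded an FPKM of 2 for it, and the difference was 4.34 (SE 0.867, limma adjusted p = 0.506).

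Membrane transporters were among the 12. SLC40A1, the iron exporter ferroportin, had 5.58, 9.71, 7.75 and 16.3 FPKM in set A, against 0.0566, 0.0112, 3.38 and 0.762 in set B, a difference of 2.58. FLVCR2, a transporter of the FLVCR family, had 7.36, 14.1, 9.89 and 5.24 in set A, against 2.02, 1.25, 0.347 and 0.00974 in set B, a difference of 2.47. SLCO2A1, a prostaglandin transporter, was at 1.18 to 2.33 in set A and at 0 in every line of set B except HEC59 with 0.0306. Being near the lower limit of the filter, SLCO2A1 differed by only 1.44 on this scale.

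The other genes higher in set A are given by their ranges. ARSB, the lysosomal enzyme arylsulfatase B, ranged from 21.8 to 46.3 FPKM in set A and from 2.99 to 9.9 in set B. RERE, a nuclear corepressor of the atrophin family, ranged from 62.9 to 157 in set A and from 20.8 to 42 in set B. STAG2, a subunit of cohesin, ranged from 75.7 to 99 in set A and from 25.8 to 45.3 in set B, and differed by 1.27 (SE 0.279). ROCK2, a kinase downstream of RHOA, ranged from 50.3 to 97.4 in set A and from 12.8 to 42.5 in set B. UTP14A, a factor of ribosomal RNA processing, ranged from 22.1 to 38.8 in set A and from 7.1 to 11.1 in set B. The neuropeptide gene GAL had 1.06 to 6.47 in set A and 0 to 0.346 in set B, and MID2, a ubiquitin ligase that binds microtubules, had 3.91 to 16.5 in set A and 0.00894 to 2.81 in set B. Adjusted p-values of these 12 genes lay between 0.443 and 0.568 in limma.

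BASP1, which encodes a membrane-bound protein abundant in growth cones, had the smallest p of all protein-coding genes. Its FPKM was 0.0293, 5.01, 1.14 and 0.0232 in set A, against 42.9, 42.5, 17.6 and 70.4 in set B. It averaged 0.94 ± 1.21 in set A and 5.32 ± 0.81 in set B on the log2 scale (SD, n = 4 each), a difference of -4.38 (SE 0.647, limma adjusted p = 0.218). LTBR, the lymphotoxin beta receptor, had 0.207, 0, 2.54 and 1.49 FPKM in set A, against 9.37, 12.3, 14.7 and 9.97 in set B. The difference of LTBR was -2.78 (SE 0.475, limma adjusted p = 0.413).

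WNT5A was among the genes lower in set A. It had 0.0456, 0.0702, 2.55 and 0 FPKM in set A, against 5.01, 6.17, 7.8 and 3.1 in set B. KLE, the highest line of set A, came close to H146, the lowest of set B. The difference was -2.15 (SE 0.504, limma adjusted p = 0.568), the lung difference -1.96 and the endometrial difference -1.02. Its receptor gene ROR1 had 0.312, 0.2, 16.5 and 15 in set A, against 5.27, 0.255, 10 and 0 in set B, so that the sets overlapped (difference 0.59, SE 1.15, limma adjusted p = 0.956). PTK7, a coreceptor of non-canonical WNT signalling, had 11.9, 13.6, 16.8 and 7.25 in set A, against 2.55, 5.23, 6.76 and 7.93 in set B, and differed by 1.04 (limma adjusted p = 0.811).

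Of 20 tested genes of the non-canonical WNT list, 11 had higher and 9 lower means in set A, with a median of 0.08 that became -0.01 under upper-quartile scaling and as TPM, which rescales FPKM to a common sum. Of 11 tested targets of beta-catenin signalling, 6 were higher and 5 lower, with a median of 0.06 that became -0.01 and -0.09 under these scalings. Their member with the smallest p was DKK1, a secreted WNT inhibitor, with 1.48, 253, 5.41 and 17 FPKM in set A, against 0.138, 0, 0.0264 and 0 in set B (difference 3.98, limma adjusted p = 0.735). H661 stood far above the other lines for DKK1.

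Several genes lower in set A encode parts of the mitochondrial respiratory chain. Complex I, which takes electrons from NADH, is built from mitochondrial and nuclear genes, and 4 of its genes were among the 12. The 12 were chosen by lack of overlap, so this count is not a result about complex I. Of 71 tested nuclear genes of the respiratory chain, 7 lacked overlap with set A lower, beside 1.75% of all genes. Their median was -0.21, with -0.28 in lung and 0.27 in endometrial lines. The 4 genes have transcripts of 346 to 1166 bases. In the bin of shortest protein-coding transcripts, up to 1643 bases, 4.38% lacked overlap in this direction. The mitochondrial MT-ND3 had 126, 107, 124 and 226 FPKM in set A, against 405, 559, 476 and 372 in set B (difference -1.68, SE 0.318, limma adjusted p = 0.443). NDUFA13 had 11.3, 5.71, 11.2 and 12.3 in set A, against 51.8, 30.5, 35.9 and 22.3 in set B. NDUFA2 ranged from 16.6 to 30.3 in set A and from 39.3 to 78.1 in set B, and NDUFB7 from 12.4 to 20.4 in set A and from 31.7 to 79.7 in set B. GADD45GIP1, a protein of the mitochondrial ribosome, had 5.67 to 10.7 in set A, against 19.5 to 67.9 in set B.

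The rest of the genes lower in set A were LOC100506136, now named SEM1, C19orf43, now named TRIR, and the zinc finger genes ZNF597 and ZNF43. SEM1, a small subunit of the proteasome lid, had 26.7 to 45.9 FPKM in set A and 91.9 to 109 in set B. TRIR ranged from 10.2 to 24.1 in set A and from 41.1 to 124 in set B. ZNF597 was at 0 in H522, H661 and KLE and at 2.22 in H716, against 2.73 to 11.6 in set B. ZNF43 had 10.4, 0.246, 4.76 and 0.119 in set A, against 22, 28.3, 17.5 and 32 in set B. Adjusted p-values of the 12 genes lower in set A lay between 0.218 and 0.576 in limma.

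**Figure D1:**
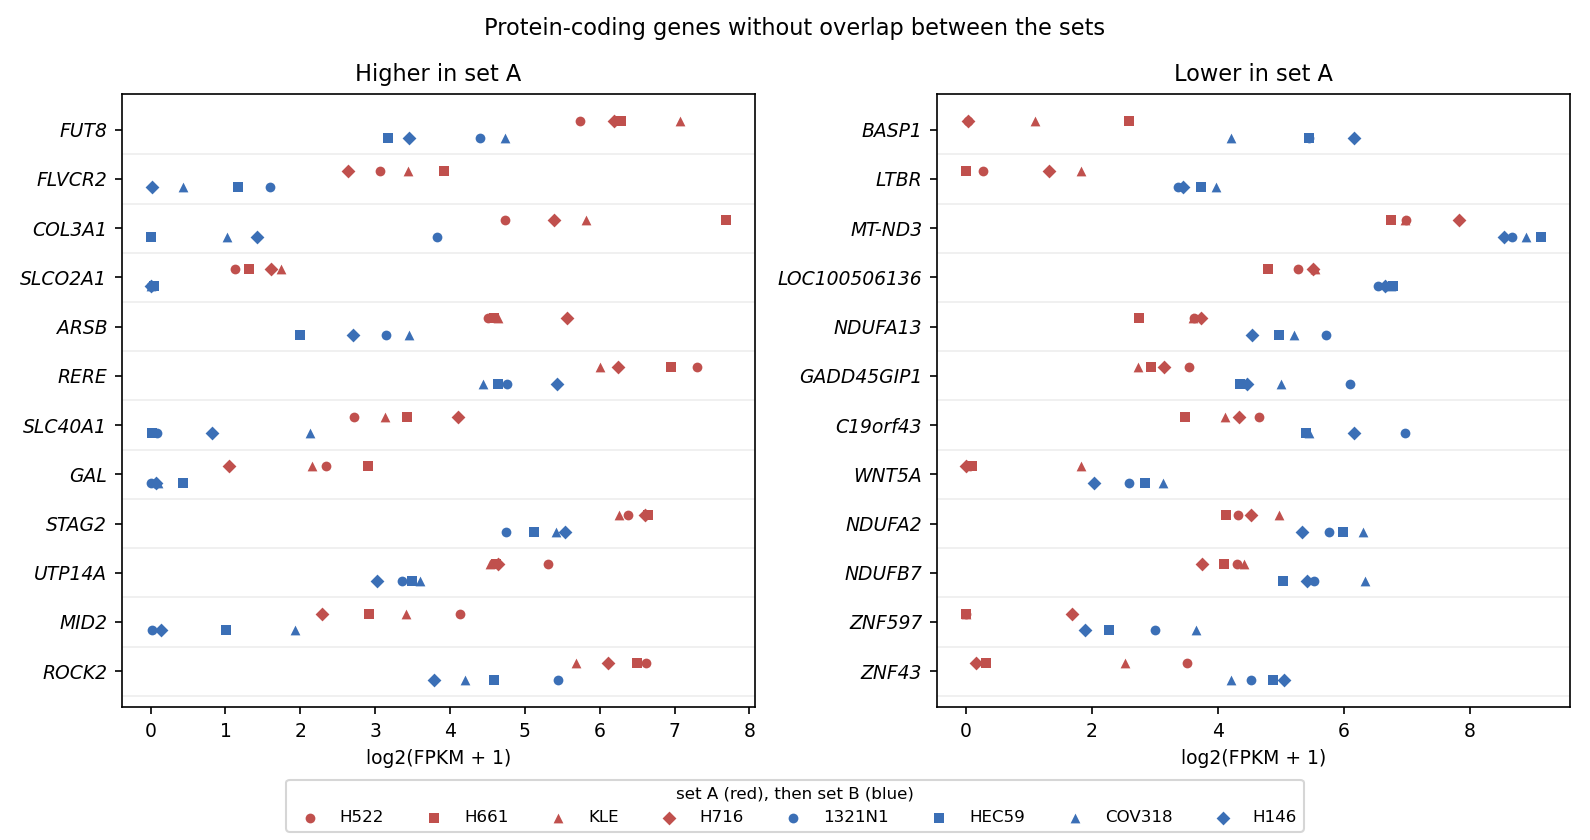
Level of the 12 protein-coding genes in each direction, as log2(FPKM + 1) on the x axis, with 1 point per line, set A in red on the upper row and set B in blue on the lower row of each gene. The sets do not overlap for any of these genes, which is how they were chosen, and the gap is widest for BASP1 in the right panel.

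The receptors for which the lines were assembled did not separate the sets. ERBB4 averaged 5.74 ± 0.87 in set A and 5.1 ± 1.06 in set B (log2, SD, n = 4 each), a difference of 0.64 (SE 0.599, limma adjusted p = 0.878). Its direction differed between tissues, with a lung difference of 1.94 and an endometrial difference of -1.31. The other receptors differed by 0.24 for EGFR, 0.42 for ERBB2 and -0.21 for ERBB3, with standard errors of 1.19, 0.871 and 0.77, and each of these 3 changed its sign when single lines were left out. NRG1, a ligand of ERBB3 and ERBB4, had 32.3 FPKM at the median of set A and 7.03 at that of set B, with overlap, and a difference of 1.93 (SE 1.36, limma adjusted p = 0.834). BTK did not reach the filter in any line.

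Feedback genes of MAPK signalling, which lies downstream of ERBB receptors, were higher in set A for 14 of 17 tested members and lower for 3, with a median of 0.74 beside 0.03 for all genes. None passed the test, 2 had an unadjusted p under 0.05 with set A higher (3.36% of all genes did), and the sets overlapped for all 17. ETV4, a transcription factor of the ETS family, had 16.2, 6.64, 5.07 and 13.4 FPKM in set A, against 7.82, 1.07, 0.653 and 2.39 in set B. DUSP6, a phosphatase that acts on ERK, had 198, 151, 43.5 and 74.7 in set A, against 24.9, 88.1, 20 and 11.9 in set B. HEC59 exceeded KLE and H716 for DUSP6, and its lung and endometrial differences were 3.75 and -1. Among 12 tested YAP target genes 8 were higher and 4 lower, with a median of 0.63 that became -0.33 without H146.

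Targets of NRF2, the regulator of the response to oxidants, were higher in set A for 10 of 13 tested members, with a median of 0.61. TXNRD1, a thioredoxin reductase, had 363, 81.1, 157 and 134 FPKM in set A, against 47.8, 27.5, 50 and 46.4 in set B, a difference of 1.89 (SE 0.453, limma adjusted p = 0.568). GCLC, the catalytic subunit that starts glutathione synthesis, had 25.8, 15.6, 21 and 30.9 in set A, against 12.9, 12.3, 13.6 and 15.1 in set B. GCLC in H661 was only just above H146, and its limma adjusted p was 0.811. NRF2 targets of the AKR1C family went the other way by their means, AKR1C2 by -1.19 and AKR1C1 by -0.8, with H716 among their highest lines.

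Interferon-stimulated genes were lower in set A for 18 of 20 tested members, with a median of -1.56, and 5 had an unadjusted p under 0.05 with set A lower, as did 2.72% of all genes tested. The sets overlapped for all 20. BST2, a restriction factor for enveloped viruses, had 0, 0, 0.327 and 1.03 FPKM in set A, against 11.7, 36.5, 25.2 and 0.187 in set B. DDX58, the RNA sensor RIG-I, had 1.38, 1.9, 6.83 and 1.11 in set A, against 3.59, 20, 12.3 and 12.3 in set B. The median lung difference of the list was -0.05 and the endometrial difference -1.68. Genes of MHC class I presentation, which interferon also induces, had 9 of 12 members higher in set A, with a median of 0.71.

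Genes of the cholesterol synthesis list were lower for 18 of 21 tested members, with a median of -0.8 and 5 members lower at an unadjusted p under 0.05, beside 2.72% of all genes. INSIG1, which retains the SREBP pathway in the endoplasmic reticulum, had 3.75, 5.05, 6.72 and 11.3 FPKM in set A, against 17.7, 20.6, 9.12 and 11.4 in set B. SQLE, an enzyme of the pathway, was an exception through H716 alone, with 1461 FPKM there and 12.1 to 37.2 in the other lines of set A, against 7.89 to 47.1 in set B. The medians within tissues were -0.89 in lung and -0.79 in endometrial lines.

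Epithelial genes were lower for 14 of 16 tested members (median -0.75) and mesenchymal genes for 12 of 17 (median -0.6). The mesenchymal direction was not stable: the median was 0.74 in lung and 0.38 in endometrial lines, 0.63 with tissue as a term and 0.5 without 1321N1. For the epithelial list the lung and endometrial medians were -2.19 and 0.16. ESRP2, a splicing regulator of epithelia, had 0.0402 to 0.406 FPKM in set A, with a median of 0.204, against a median of 3.34 in set B, where 1321N1 was lowest with 0.341 (difference -1.77, limma adjusted p = 0.751). The epithelial list summed to 36.7, 58.6, 2343 and 95.5 FPKM in set A, against 26.7, 668, 670 and 518 in set B, and KLE held the largest sum. For the mesenchymal list the sums were 256, 2195, 2344 and 548 in set A, against 5264, 292, 595 and 50.3 in set B. These sums followed single lines and not the sets. In bulk RNA of a culture, fewer cells that express a gene and less of its RNA per cell cannot be told apart.

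Markers of other cell types varied by line. The immune list summed to 2.49 to 14.4 FPKM in set A, against 0.589 to 14.6 in set B, with 2 of 10 genes at an FPKM of 1 in any line. The endothelial list summed to 0.0999 to 44.9 in set A, against 0.607 to 39.5 in set B, with 4 of 8 genes at 1 in any line and PECAM1, its defining gene, at 0 throughout. Single genes made these sums, with the angiopoietin receptor gene TEK at 44.7 in H522, and the transcription factor gene ERG at 36.9 in HEC59 and 18.7 in H146. The neuroendocrine list summed to 257 to 1067 in set A, against 15 to 2223 in set B. Proliferation genes were divided evenly, 8 higher and 8 lower, with a median of -0.09.

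**Figure D2:**
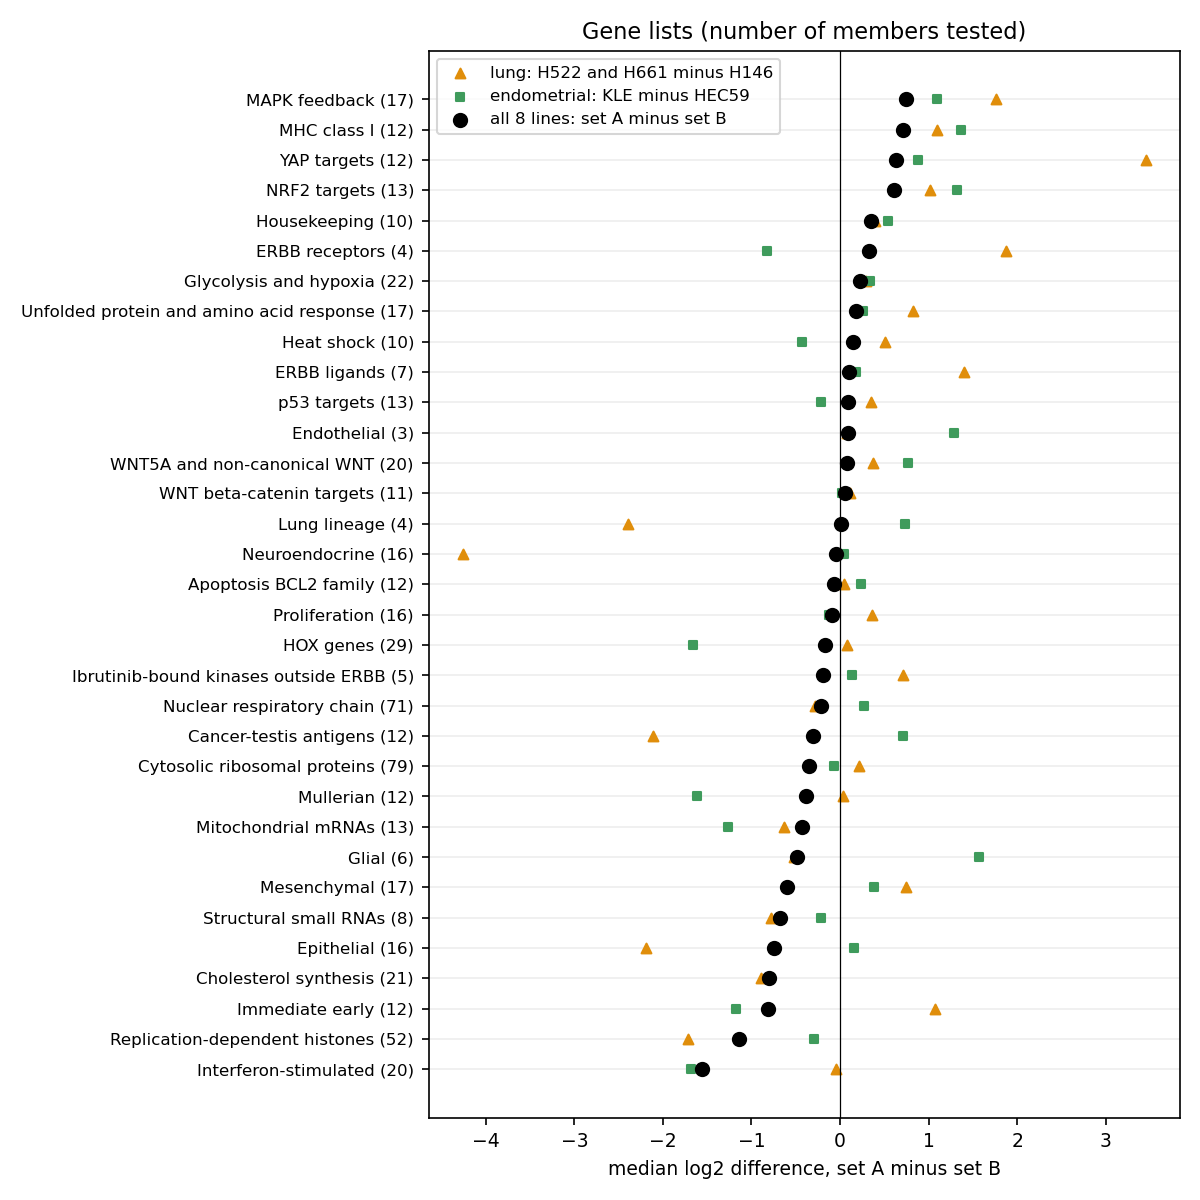
Median difference of each gene list, set A minus set B (log2, x axis), with the number of tested members in brackets, over all 8 lines (black), in the lung lines (orange) and in the endometrial lines (green). MAPK feedback genes lie highest at 0.74 and interferon-stimulated genes lowest at -1.56, and for several lists the lung and endometrial values fall on opposite sides of 0.

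Classes of RNA were compared next. Among 12550 protein-coding genes the sets lacked overlap for 261 (2.08%) with set A higher and for 198 (1.58%) with set A lower. Among 573 processed pseudogenes these counts were 59 (10.3%) and 6 (1.05%), beside 2.36% and 1.75% for all genes tested. The median difference of the processed pseudogenes was 0.04, close to the 0.03 of all genes, with 0.18 in lung and 0 in endometrial lines. Antisense RNAs leaned the other way, with 16 higher and 30 lower of 805 and a median of -0.13. It was not stated whether reads were assigned by strand, so antisense RNAs and the genes they overlap cannot be told apart with certainty.

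The excess of pseudogenes grew with their level. Of 310 processed pseudogenes with a mean log2(FPKM + 1) of at most 1, 10 (3.23%) were higher in set A without overlap. Of 158 with a mean of 1 to 2 there were 20 (12.7%), and of 105 with a mean over 2 there were 29 (27.6%). The median difference of these 105 was 0.66, with a lung median of 0.91 and an endometrial median of 0.97. Protein-coding genes above the same level had a median of 0.11, and 226 of 8772 (2.58%) were higher without overlap. For each gene the deviation from its mean over the lines was taken, and each line's median over protein-coding genes was subtracted. On this scale the 105 pseudogenes had medians of 0.29, 0.29, 0.39 and 0.41 in set A. In set B their medians were -0.3, -0.31, -0.21 and -0.26. Summed over the 573 tested processed pseudogenes, FPKM was 3289, 3270, 3711 and 3042 in set A, against 2375, 2711, 2202 and 2325 in set B. As a share of each line's summed FPKM the sets overlapped, with 0.617% to 0.8% in set A and 0.439% to 0.683% in set B.

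How close such copies are to their parents is shown by 3 pairs, chosen after their values were seen: 2 near-identical pseudogenes that were higher in set A, and an abundant pseudogene with under 90% identity to its parent. Each line gives 90 bases from the middle of the longest ungapped stretch of the alignment, 5′ to 3′ in the sense of the parent's mRNA, with bases that differ within a pair in capitals. Sequences are transcripts of GENCODE release 29, annotated on GRCh38. Within these windows RPL6P27 differed from RPL6 at 0 bases, EEF1A1P6 from EEF1A1 at 1 and SLC2A3P1 from SLC2A3 at 13.
RPL6P27: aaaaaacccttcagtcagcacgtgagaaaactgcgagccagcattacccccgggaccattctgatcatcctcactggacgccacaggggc
RPL6: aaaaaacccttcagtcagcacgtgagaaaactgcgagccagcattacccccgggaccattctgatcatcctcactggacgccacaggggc
EEF1A1P6: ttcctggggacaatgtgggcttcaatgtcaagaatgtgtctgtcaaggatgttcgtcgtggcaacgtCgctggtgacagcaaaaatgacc
EEF1A1: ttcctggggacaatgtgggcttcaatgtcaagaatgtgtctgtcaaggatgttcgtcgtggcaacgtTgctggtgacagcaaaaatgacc
SLC2A3P1: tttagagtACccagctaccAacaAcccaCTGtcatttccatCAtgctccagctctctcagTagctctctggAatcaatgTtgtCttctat
SLC2A3: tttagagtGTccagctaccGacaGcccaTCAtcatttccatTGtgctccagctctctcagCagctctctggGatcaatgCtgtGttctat

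RPL6P27, a pseudogene on chromosome 18 of the ribosomal protein gene RPL6, had 81.3, 117, 109 and 106 FPKM in set A, against 28.7, 21.2, 26 and 19.6 in set B. Its difference of 2.07 stood beside 0.73 for RPL6 on chromosome 12, which had 1228, 1669, 2291 and 1474 in set A, against 1443, 829, 1089 and 706 in set B. The pseudogene lacked overlap between the sets and the parent did not. Over 864 aligned bases they were 99.3% identical, with a longest identical run of 273 bases. RPL6P27 is annotated as a transcribed processed pseudogene, a class not counted among the 573 processed pseudogenes. Of 89 tested genes of that class, 2 (2.25%) were higher in set A without overlap and 1 (1.12%) lower. Their median difference was 0, and 2.36% of all genes tested were higher without overlap.

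EEF1A1P6 on chromosome 7, a copy of the elongation factor gene EEF1A1, had 21.7, 23.9, 16.7 and 16 FPKM in set A, against 5.6, 4.93, 6.83 and 4.49 in set B. It was 99.5% identical to its parent and differed by 1.67, beside 0.47 for EEF1A1. PPIAP22, a copy of the cyclophilin A gene PPIA, had 41.2 FPKM or more in every line of set A, against 10.7 to 27.9 in set B. It differed by 1.74, while PPIA itself differed by 0.01 and took the other sign under upper-quartile scaling (-0.09), quantile normalization (-0.03) and TPM (-0.11). Copies of YBX1, PSMC1 and BZW1 showed the same order, with YBX1P1 at 1.89 beside 0.65 for YBX1, PSMC1P1 at 1.86 beside 0.69 for PSMC1, and BZW1P2 at 2.27 beside 1.67 for BZW1. All 6 pseudogenes were named after their values were seen, and no test is given for them. They were taken from the 12 pseudogenes with a named, tested parent and the smallest p, and among the parents of these 12 there were also genes that themselves lacked overlap. NPM1, which encodes nucleophosmin, ranged from 1780 to 2620 in set A and from 663 to 1737 in set B, and EIF1AX, a translation initiation factor gene, from 75.8 to 157 in set A and from 24.3 to 60.3 in set B.

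SLC2A3P1 on chromosome 5, a copy of the glucose transporter gene SLC2A3 with 83.9% identity over 1156 aligned bases and a longest identical run of 38 bases, did not share this pattern. It had 11.4, 7.38, 12.6 and 6.61 FPKM in set A, against 9.63, 19.1, 10.2 and 10.9 in set B, a difference of -0.35. SLC2A3 had 62.2, 38.4, 6.77 and 0.773 in set A, against 6.86, 0, 0.261 and 0 in set B, so the pseudogene was detected in HEC59 and H146 where its parent was listed at 0.

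**Figure D3:**
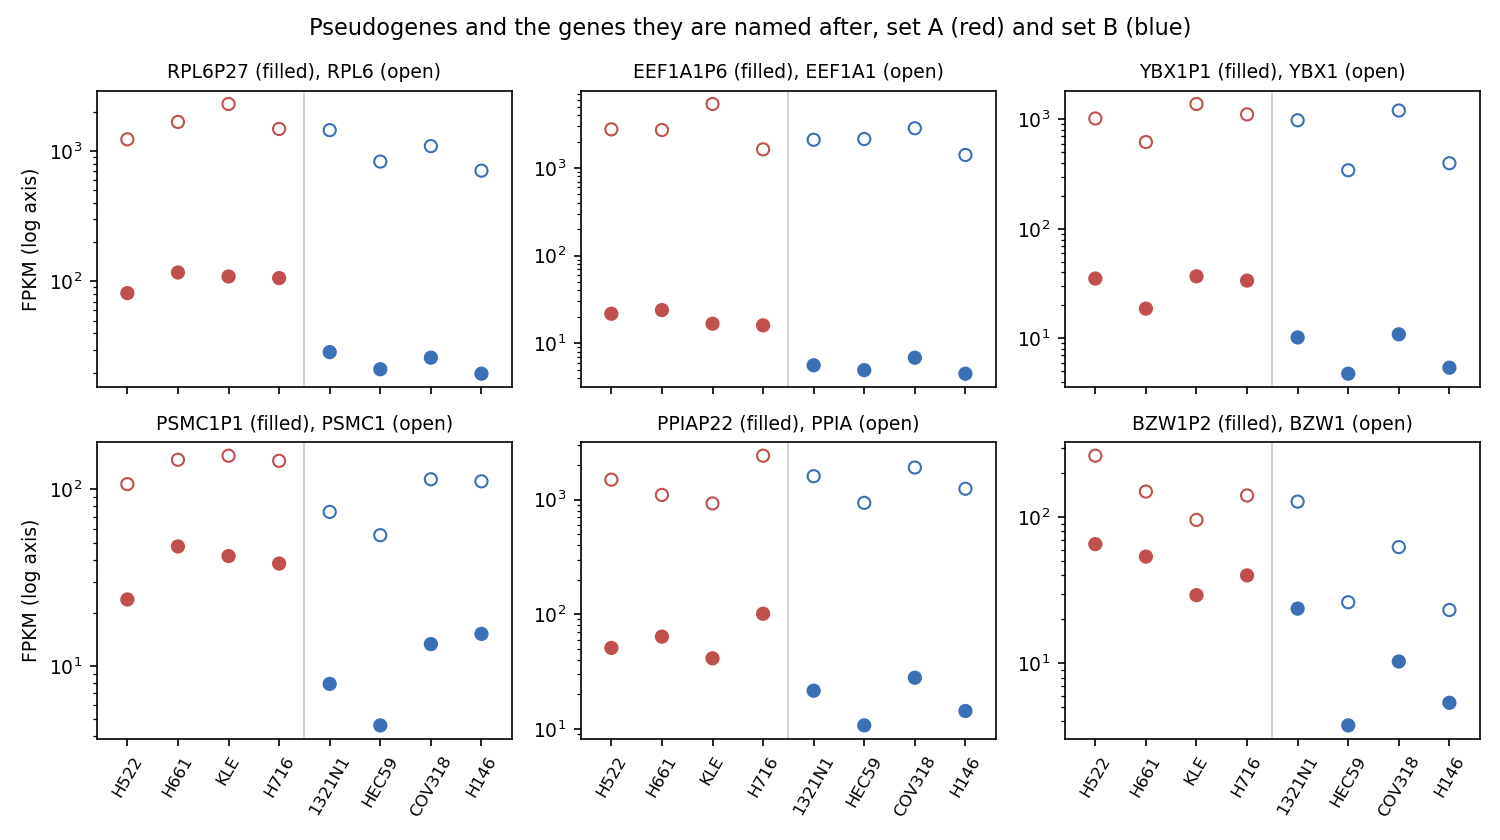
FPKM on a log axis of 6 pseudogenes (filled) and their parent genes (open) in each line, set A in red and set B in blue. Each pseudogene lies higher in all lines of set A than in any line of set B, while these 6 parents overlap between the sets.

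The same was measured for all 241 processed pseudogenes whose names give a tested parent gene, of which there were 174. The median difference was 0.18 for the pseudogenes and -0.02 for the parents, and 155 of 241 pseudogenes lay above their parent in this difference. Among the 55 with a mean log2 level over 2, the medians were 0.72 and 0.08, and 44 of 55 lay above their parent. The median log2 ratio of these pseudogenes to their parents was -4.85, -4.75, -4.79 and -4.82 in set A, against -5.72, -5.43, -5.64 and -5.35 in set B. The sets were separated by this ratio, and the lines of set A differed from each other by no more than 0.1.

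Identity to the parent could be computed for 239 of these pairs, with a median of 96.5% and a range of 65.3% to 100%. Among 141 pairs with an identity of 95% or more, 29 pseudogenes (20.6%) were higher in set A without overlap and 3 (2.13%) lower. Their median difference was 0.31, with 0.58 in lung and 0.39 in endometrial lines, beside -0.02 for the parents. Among 50 pairs with 90% to 95% identity, 2 (4%) were higher without overlap, and among 48 pairs below 90% there were 0, with a median of -0.07. The longest identical run had a median of 161, 52.5 and 25 bases in these 3 classes. Pseudogenes of the closest class were also more abundant, with a median level of 1.32, against 0.86 and 0.84 in the other classes. The part of read assignment in these differences was not tested.

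Protein-coding genes differed between the sets by the length of their transcripts. In 10 equal bins of length, the bin of shortest transcripts (177 to 1643 bases) had a median difference of -0.19, with 8 genes (0.637%) higher and 55 (4.38%) lower without overlap. The bin of longest transcripts (7840 to 43816 bases) had a median of 0.14, with 35 (2.79%) higher and 10 (0.797%) lower. Within the lines, deviations from the gene means were taken relative to each line's median over all protein-coding genes. The median deviation of the shortest bin was -0.23, -0.23, -0.07 and -0.04 in set A, against 0.13, -0.06, 0.27 and 0.13 in set B. HEC59 thus lay among the lines of set A. Within tissues the shortest bin had medians of -0.06 in lung and 0.09 in endometrial lines, beside 0.24 and 0.15 for all protein-coding genes.

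A similar order was seen for GC content. In the bin of highest GC (60.9% to 74.5%) the median difference was -0.13, with 6 genes (0.478%) higher and 41 (3.27%) lower without overlap, and from the first to the fifth bin the medians were between 0.1 and 0.14. The median deviation of the highest bin, taken in the same way, was -0.06, -0.1, -0.18 and -0.12 in set A. In set B it was 0.22, 0.22, -0.08 and 0.07, where COV318 lay among set A. Short transcripts are often rich in GC, so the corners were separated. Genes both short and GC-rich had a median of -0.2 (786 genes, 36 lower and 5 higher without overlap), and long AT-rich genes a median of 0.17 (831 genes, 7 lower and 19 higher). Short AT-rich genes had -0.09 (212 genes) and long GC-rich genes -0.01 (176 genes).

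**Figure D4:**
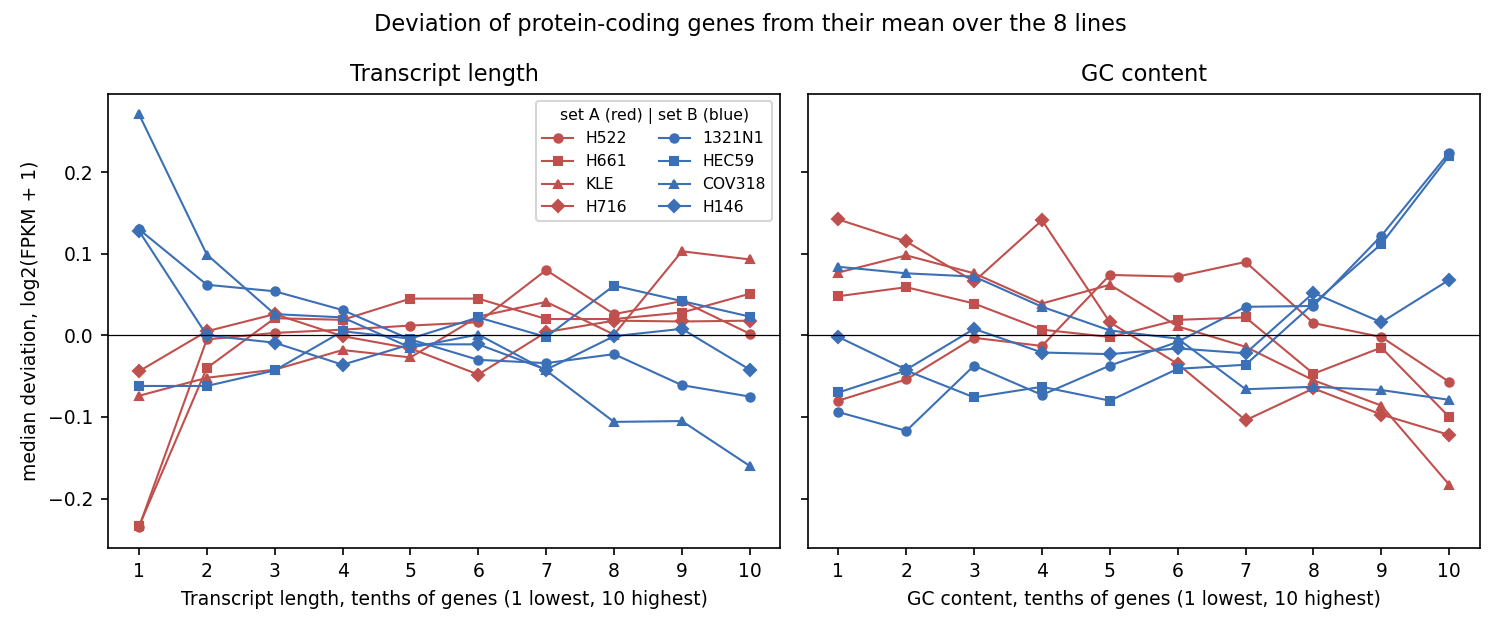
Median deviation of protein-coding genes from their own mean over the 8 lines, as log2(FPKM + 1), in 10 equal bins of transcript length (left) and GC content (right), with 1 curve per line. Each line's median over all protein-coding genes was subtracted. In the shortest bin the lines of set A (red) lie between -0.23 and -0.04 and those of set B (blue) between -0.06 and 0.27, and curves of both sets cross in the middle bins.

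Several gene lists with short members stood low in set A. Replication-dependent histone genes, with a median transcript length of 674 bases where a length was annotated, were lower for 49 of 52 tested members and higher for 3. Their median was -1.14, with -1.72 in lung and -0.29 in endometrial lines, and 14 members had an unadjusted p under 0.05 and 8 lacked overlap, all with set A lower. Among all genes tested 2.72% and 1.75% did so, and 4.38% of the shortest protein-coding genes lacked overlap in this direction. HIST1H4E, a gene of histone H4, had 3.17, 2.74, 5.33 and 9.81 FPKM in set A, against 43.1, 20.7, 24.8 and 29.9 in set B (difference -2.37, SE 0.423, limma adjusted p = 0.413). HIST1H4B had 7.35, 2.44, 6.88 and 6.09 in set A, against 33.8, 12.5, 15 and 27.7 in set B. With genes of annotated length centred within bins of length and GC, the median of the list was -0.59. HIST1H4E and HIST1H4B had no annotated length and were left out of that fit, so -0.59 and -1.14 cover different members. As a mean over its members the list overlapped, at 2.67, 2.86, 3.04 and 4.33 (log2) in set A, against 4.26, 3.72, 4.61 and 4.72 in set B, with H716 high.

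Structural small RNAs were lower for 7 of 8 tested members, with a median of -0.68. RN7SL1, the RNA of the signal recognition particle, had 31.7, 19.9, 48.5 and 45.9 FPKM in set A, against 169, 67.4, 118 and 97.8 in set B. RN7SL2, a near-identical copy whose reads may be shared with it, had 34.4, 27.5, 44.1 and 35.8 in set A, all below the 58.2 of HEC59, the lowest line of set B. All 13 mitochondrial mRNAs had lower means in set A, with a median of -0.43, while the mitochondrial share of the summed FPKM was lowest in 1321N1 of set B. Only MT-ND3 lacked overlap. MT-CO3 had 1454, 1373, 2853 and 2824 in set A, against 2306, 8178, 4044 and 4711 in set B.

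Nuclear genes of the respiratory chain were lower for 49 of 71 tested members, with a median of -0.21, and 7 lacked overlap with set A lower (1.75% of all genes did) and 0 with set A higher. The median was -0.28 in lung lines and 0.27 in endometrial lines, and -0.06 without COV318. Their direction was not shared by all members. ATP5B, a subunit of ATP synthase, had 784, 2269, 1115 and 1540 FPKM in set A, against 606, 652, 847 and 1044 in set B. Of this list, NDUFA13 and NDUFA2, described above, have transcripts of 1166 and 804 bases. Cytosolic ribosomal proteins were lower for 62 of 79 members, with a median of -0.35 and 5 members lower without overlap, beside 1.75% of all genes. RPS20 had 339, 567, 703 and 479 in set A, against 1264, 1132, 1564 and 921 in set B (difference -1.25, limma adjusted p = 0.71). RPL14 went the other way, with 1352, 1221, 2948 and 1716 in set A, against 1506, 506, 896 and 582 in set B. Within tissues the median of the ribosomal protein list was 0.21 in lung and -0.07 in endometrial lines, and with tissue as a term in the fit it was 0.06. Housekeeping genes had 8 of 10 members higher, with a median of 0.35, and HPRT1, a purine salvage enzyme, had 33.6, 40.5, 23.1 and 36.8 in set A, against 13.6, 16.8, 18.6 and 18.2 in set B.

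The values of single reads also depended on length in a way that followed the sets. Low FPKM values differ by whole reads, so that the ratio found most often between 2 lines among values up to 0.5 compares what 1 read is worth in each. In each length class this ratio was sought only near the pair's commonest ratio over transcripts of up to 1500 bases, which limits how large a shift can be. For a line of set A over a line of set B, this ratio was higher for transcripts of up to 600 bases than for those of 4000 to 8000 bases by 0.17 to 0.35 (log2), with a median of 0.23 over 16 pairs. Between 2 lines of set A the shift was -0.05 to 0.09 (6 pairs) and between 2 lines of set B -0.05 to 0.04 (6 pairs). Few genes held the commonest ratio at 4000 to 8000 bases, for example 2.85% for H522 over HEC59 and 3.63% for H522 over H661. Up to 600 bases these shares were 9.69% and 30.1%. By this measure a read on a short transcript was worth relatively more FPKM in set A, although short genes had lower levels there. These low values had led to the split, so the shift is a description and supports nothing, and what made it was not tested.

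**Figure D5:**
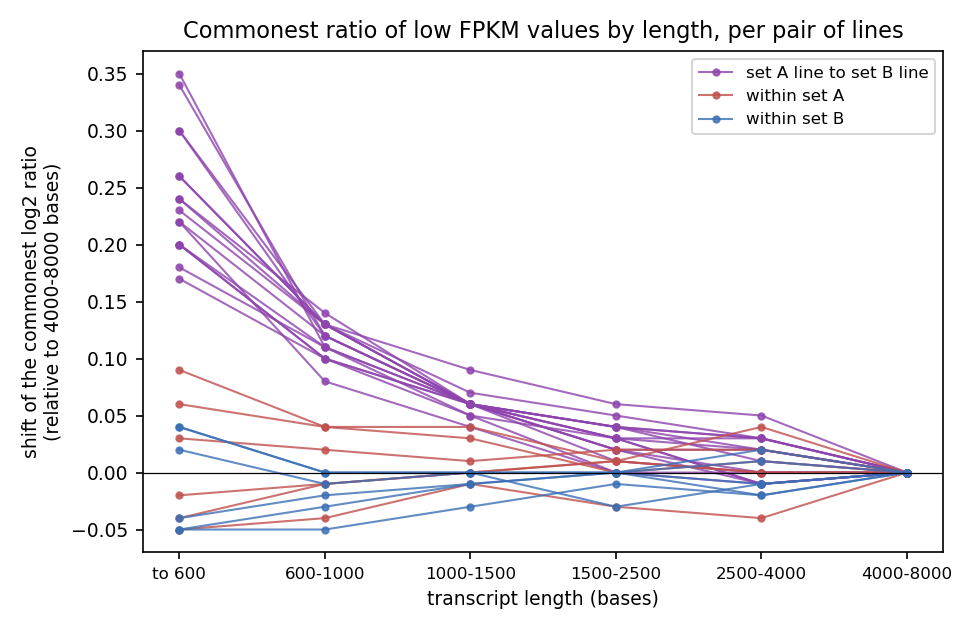
Shift of the commonest log2 ratio of low FPKM values by transcript length, relative to transcripts of 4000 to 8000 bases, with 1 curve per pair of lines. The ratio was sought only near each pair's commonest ratio over transcripts of up to 1500 bases. Pairs of a set A line over a set B line (purple) rise to between 0.17 and 0.35 at the shortest transcripts, while pairs within set A (red) and within set B (blue) stay between -0.05 and 0.09.

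Single entries were listed at 0 throughout one set. AL157871.2, an RNA annotated as overlapping a gene in sense, had 1.55, 2.56, 3.84 and 5.16 FPKM in set A and 0 in set B, and AL162151.3, a processed pseudogene, was at 0 in set A and had 9.98, 4.16, 5 and 5.77 in set B. No other entry was at 0 in all lines of one set and at 1 or more in all lines of the other. A value of 0 in FPKM can be a failed estimate, so no fold is given, and these 2 entries were named after their values were seen.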

How the data were processed

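RNA of 8 cell lines, 1 library each, was analysed from the gene tables that the authors deposited, whose unit is FPKM per the file headers. The submitters' processing notes list CASAVA 1.4, TopHat2 2.0.8 and SAMtools 1.0 and the build GRCh37. Which program estimated FPKM, and whether it used strand, is not stated in the labels or headers. Genes that reached FPKM 1 in 2 lines entered a fit of log2(FPKM + 1) in R 4.3.3 by limma 3.58.1 with a trended prior variance, adjusted by Benjamini-Hochberg at 0.05, after the fit had been tested on simulated data. The p-values measure the spread between lines. Types, lengths and GC content (longest transcript) came from GENCODE release 29 by gene identifier, with no coordinates, and covered 96.4% of the genes tested. Pseudogenes were aligned locally to the coding sequence of the gene in their name with Biopython 1.88.

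Named genes are the protein-coding genes without overlap with the smallest p, up to 12 in each direction; a set of ERBB, WNT5A and BTK genes; and up to 2 members per direction and list. Of 36 gene lists, medians are given for those with at least 3 tested members. Members and lists were chosen with earlier results of these data known. Alternatives covered pseudocounts, filters, scalings (upper quartile, quantile, TPM), variance models, tissue as a term, each line left out and, added after seeing the data, protein-coding genes alone and centring by length and GC.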

Additional observations from a re-analysis of the deposited data

Results flagged for a closer look

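Among the 70 genes followed, 4 had opposite signs in lung and endometrial lines, with both lung lines of set A on the same side of H146. The lung and endometrial differences were 1.94 and -1.31 (log2) for ERBB4, 3.15 and -0.35 for ERBB2 and 3.75 and -1 for DUSP6. They were -3.32 and 0.01 for BCL2, an inhibitor of apoptosis. Genes outside these 70 were not screened, and some did the same, such as SQLE with -1.48 and 0.41. Each rests on 3 lung and 2 endometrial lines, and the difference between the tissues was not tested.

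In 140 groups of 4 lines, some lines lay far from the rest of their set, which chance gives in about 1 of 20 groups. In set A these were KLE for WNT5A (2.55 FPKM) and for HOXC6 (1.25), H716 for ARSB (46.3) and for ZNF597 (2.22), H522 for UTP14A (38.8), and H661 for NDUFA13 (5.71) and for YBX1P1 (18.7). In set B they were HEC59 for TXNRD1 (27.5), 1321N1 for HOXC6 (3.96) and H146 for RP11-193F5.1 (1.8), an RNA of unknown role that was at 37.3, 16.1, 65.3 and 39.4 in set A and close to 0 in the other lines of set B. MAGEA1 in H522 (0.0164) and SLCO2A1 in HEC59 (0.0306) were flagged only because the rest of their sets were at 0, and both are far below an FPKM of 1.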

How the results depend on the processing

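The number of genes called was 0 under 17 of 20 alternatives and ranged from 0 to 2 when single lines were left out. Without H522 CTD-2291D10.4 was called, without H661 SNURF and RP11-193F5.1, and without COV318 MIR221 and AC025262.1, with limma adjusted p-values of 0.032, 0.00694, 0.0494, 0.000125 and 0.00092. In each case but RP11-193F5.1 the line left out was unlike its set, such as H661 with 38.2 FPKM of SNURF. At an unadjusted p under 0.05 the alternatives gave 705 to 1460 genes. Of 70 genes followed, 65 kept their direction under every alternative in which they were fitted. Some genes were absent from some of the 20 alternatives, so 1376 values were compared. With single lines left out, EGFR ranged from -0.78 to 1.17, ERBB2 from -0.2 to 1.14, ERBB3 from -0.67 to 0.4, ROR1 from -0.06 to 1.23 and PPIA from -0.26 to 0.2, and PPIA was -0.09 under upper-quartile scaling, -0.03 under quantile normalization, -0.11 as TPM and -0.14 centred by length and GC. List medians moved for ibrutinib-bound kinases outside ERBB (-0.19; 0.5 with 4 lines required, 0.49 with tissue as a term, -0.41 to 0.32 with lines left out) and small RNAs (-1.07 with pseudocount 0.1, -0.23 with 5, -0.32 centred). With tissue as a term they were 2.62 for YAP targets, -2.14 for neuroendocrine genes and 0.61 for the unfolded protein response. With lines left out, lung lineage ranged from -0.32 to 1.51 and endothelial genes from -2.64 to 0.21. The cause was not tested. The centred fit left out genes without an annotated length, RN7SL1 and RN7SL2 among them, so its medians cover fewer members. Counted under 12 of the alternatives, processed pseudogenes higher without overlap numbered 52 to 82, beside 59 of 573 as reported. Those lower numbered 4 to 41, beside 6, with 27 of 544 without COV318. The number tested changed too. With no filter 82 were higher and 41 lower of 4834, a far smaller share higher, and with 4 lines required 52 and 4 of 297. Leaving out a line makes lack of overlap easier to meet, and shares over all genes were not counted under these alternatives. With single lines left out, list medians also ranged across 0 for YAP targets (-0.33 to 1.03), mesenchymal genes (-1.23 to 0.5), HOX genes (-0.8 to 0.31) and cancer-testis antigens (-0.9 to 0.76). No paired analysis was possible because the replicate numbers follow the order of accession and pair no lines. Unknown depth limits what low values can show.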

Other observations

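Other gene groups were mixed. Of 29 tested HOX genes, 12 were higher and 17 lower in set A, with a median of -0.17, which ranged from -0.8 to 0.31 when single lines were left out. HOXC13 had 5.3, 6.6, 3.26 and 0.069 FPKM in set A, against 0.139, 0, 0.188 and 0 in set B, and HOXC6 had 10.8, 11.3, 1.25 and 8.4 in set A, against 3.96, 0.0664, 0.0299 and 0.202 in set B. Both encode homeobox transcription factors of body position, and their limma adjusted p was 0.735. Of 12 tested cancer-testis antigens, 9 were lower in set A, with a median of -0.31 that ranged from -0.9 to 0.76 when single lines were left out, and MAGEA1 had at most 0.0164 in set A, against 47.7, 0.0721, 0.195 and 38.9 in set B.

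Among 12 tested genes of the BCL2 family, 6 were higher and 6 lower. BAD, a promoter of apoptosis, had 4.52, 2.5, 2.2 and 3.05 FPKM in set A, against 12.3, 4.63, 6.24 and 6.4 in set B (difference -1, limma adjusted p = 0.811). BCL2 had 0.168, 0.135, 1.76 and 1.56 in set A, against 2.74, 1.75, 1.91 and 10.5 in set B. Genes of glycolysis and hypoxia (13 of 22 higher, median 0.22), p53 targets (8 of 13 higher, median 0.09), heat shock genes (5 of 10 higher, median 0.15) and immediate early genes (2 of 12 higher, median -0.81) had 0 members with an unadjusted p under 0.05. GJA1, the gap junction protein connexin 43, was high in 3 lines of set A, with 247, 104, 78.1 and 0.284 in set A, against 36.8, 0.0385, 17.1 and 0.0234 in set B (difference 2.96, limma adjusted p = 0.816).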
